A study of Homo sapiens with 6 samples.

Results

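The zinc finger genes of chromosome 19 were examined for m6A peaks in MHCC97H cells, a human hepatocellular carcinoma line. They were taken by name: every gene on chromosome 19 in either deposited peak table whose symbol is ZNF, a number and at most 1 further letter. The rule found 189 genes of the 16810 that had a peak in either table. In this MeRIP-seq study, an antibody against N6-methyladenosine (m6A) pulled down fragments of poly(A) RNA, and the pulled-down and input RNA were sequenced. The cells were given 2 µM FB23-2, an inhibitor of the m6A demethylase FTO, for 48 h (3 samples), or DMSO vehicle (3 samples), and nothing in the labels sets the groups apart otherwise. All samples come from 1 cell line, and FTO was inhibited by a compound, not removed. Each treatment has 1 pooled peak table with no column for a sample, so no peak has a replicate check and no difference between DMSO and FB23-2 could be tested.

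Most of these genes encode C2H2 zinc finger proteins with a KRAB domain. The KRAB domain binds TRIM28 (KAP1), which brings the histone H3 lysine 9 methyltransferase SETDB1 and HP1 proteins to the DNA that the fingers recognise, often a transposable element. The fingers lie in tandem, usually within 1 long last coding exon, and the genes arose by repeated duplication, so that neighbours along the chromosome are often close paralogs. m6A is written by the METTL3 and METTL14 complex, often in the sequence context DRACH, of which GGAC is a common core, and much of it lies near stop codons and in long exons.

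For 164 of the 189 genes the RefSeq window around the gene start was at hand (GRCh38.p14). These windows are shown because they give the letters under the peaks at the 5′ end, although the main peaks of most of these genes lie elsewhere. The 50 transcribed bases of the window lay wholly inside a same-strand peak of the same gene in 12 genes in the DMSO list, in 12 in the FB23-2 list and in 11 genes in both. The letters GGAC on the transcribed strand occurred in 5 of those 11 windows (45.5%, exact 95% interval 16.7 to 76.6). They occurred in 27 of the 164 windows of the zinc finger genes (16.5%), in 18.8% of all 27305 RefSeq windows and in 21.7% of the 1033 windows covered by a peak in both lists. The other strand was not searched, and no other motif was. The transcribed stretch around GGAC in each of the 5 genes reads as follows, 5′ to 3′ from the DNA with GGAC in capitals.
ZNF181: cccaggctccgGGACgattctgg
ZNF146: gcgcaccgagtGGACattttggtctt
ZNF566: acgcgctggcgGGACcctcagggctt
ZNF585B: GGACcggaagtggaa
ZNF816: gcggatggcgtGGACtgaaagttgca

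The stretch of ZNF181 lies at chr19:34734270-34734292 on the plus strand, under a peak annotated to the 5′ UTR with a log2 fold of 2.72 in the DMSO list and 2.85 in the FB23-2 list. That of ZNF146, a protein made of zinc fingers with no KRAB domain, lies at chr19:36215121-36215146 on the plus strand (log2 fold 2.58 and 2.02), and in both lists a longer peak of ZNF565 on the opposite strand (3.61 and 2.22) covers the whole peak and the stretch. That of ZNF566 lies at chr19:36489536-36489561 on the minus strand and had the strongest peak of the 5 (log2 fold 4.28 and 4.01), but a peak of a gene on the opposite strand, AC092295, overlaps part of it. The stretch of ZNF585B lies at chr19:37210522-37210536 on the minus strand, at the first base of the RefSeq transcript, under a long peak that the tables annotate to the 3′ UTR (log2 fold 3.06 and 3.54). In the peak tables ZNF585B starts further upstream, at 37218153, so there the stretch is not at the 5′ end and may be intronic. That of ZNF816 lies at chr19:52962844-52962869 on the minus strand (log2 fold 3.18 and 3.18). The peak over it, at 52956027 to 52967992 in both lists, extends upstream of the ZNF816 start at 52962911. It reaches into ZNF702P (52966896 to 53037898) on the same strand. The H of DRACH stands for A, C or T. The base after GGAC is g in ZNF181, so that stretch is not a DRACH match. In the other stretches it is a, c or t. A match of 4 letters does not show that the adenosine carries m6A.

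A peak was found in 186 of the zinc finger genes in each list, and in 183 in both. RefSeq names 246 protein-coding genes of this pattern on chromosome 19, and 184 of them had a peak (74.8%, exact 95% interval 68.9 to 80.1). The share was 85.6% (80.7 to 89.6) for the 263 coding genes of the same name pattern on other chromosomes and 57.6% (54.7 to 60.4) for the 1205 other coding genes of chromosome 19. The remaining 5 genes with a peak, ZNF849P, ZNF781, ZNF137P, ZNF321P and ZNF702P, are pseudogenes in RefSeq. Neither ZNF43 nor ZNF93, a repressor of LINE-1 elements, had a peak. A missing peak does not separate an RNA that is not expressed from one without m6A, because the tables hold no expression values.

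The genes held 465 peaks in the DMSO list and 458 in the FB23-2 list, or 2.50 and 2.46 peaks per gene with a peak, beside 2.65 and 2.61 over all genes. A single peak was found in 60 genes with DMSO and in 62 with FB23-2, and 4 or more in 41 and 32. The number of peaks was the same in both lists in 106 genes, larger with DMSO in 45 and larger with FB23-2 in 38. ZNF431 had the most, 10 peaks with DMSO and 13 with FB23-2.

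The peaks of these genes had high folds. Each peak carries a log2 fold change given by the authors, read here as pulled-down over input RNA, which the tables do not state, and it describes a peak within its own list only. The median log2 fold was 2.36 over the DMSO peaks and 2.39 over the FB23-2 peaks, beside 1.39 and 1.41 over the peaks of all genes. Taking for each gene its peak with the lowest p-value, called the main peak, the median was 3.37 with DMSO (quartiles 2.88 and 3.77) and 3.47 with FB23-2 (2.95 and 3.93). Over all genes these medians were 2.12 and 2.15. The main peak reached a fold of 4 or more in 174 of 186 zinc finger genes with DMSO (93.5%, exact 95% interval 89.0 to 96.6) and in 172 of 186 with FB23-2 (92.5%, 87.7 to 95.8), and in both lists in 170 genes. Over all genes with a peak it did so in 53.4% and 53.9%.

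By main peak, zinc finger genes of other chromosomes stood close to those of chromosome 19. Their medians were 3.12 and 3.24, with a fold of 4 or more in 87.8% (82.8 to 91.7) and 86.9% (81.8 to 91.0). The exact intervals of these shares overlap those of the chromosome 19 genes in both lists. Over all peaks the sets lay further apart, with medians of 1.74 and 1.82 for zinc finger genes of other chromosomes. Of their peaks, 44.6% (40.8 to 48.5) and 45.7% (41.9 to 49.6) had a fold of 4 or more. On chromosome 19 it was 54.0% (49.3 to 58.6) and 56.6% (51.9 to 61.1) of the zinc finger peaks, and these intervals do not overlap. The other genes of chromosome 19, with median main peaks of 2.11 and 2.08, lay at the level of all genes. The intervals count genes or peaks only. Many of the genes are paralogs and not independent, and near-identical stretches can draw reads from one another in a way that the tables do not show.

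**Figure D1:**
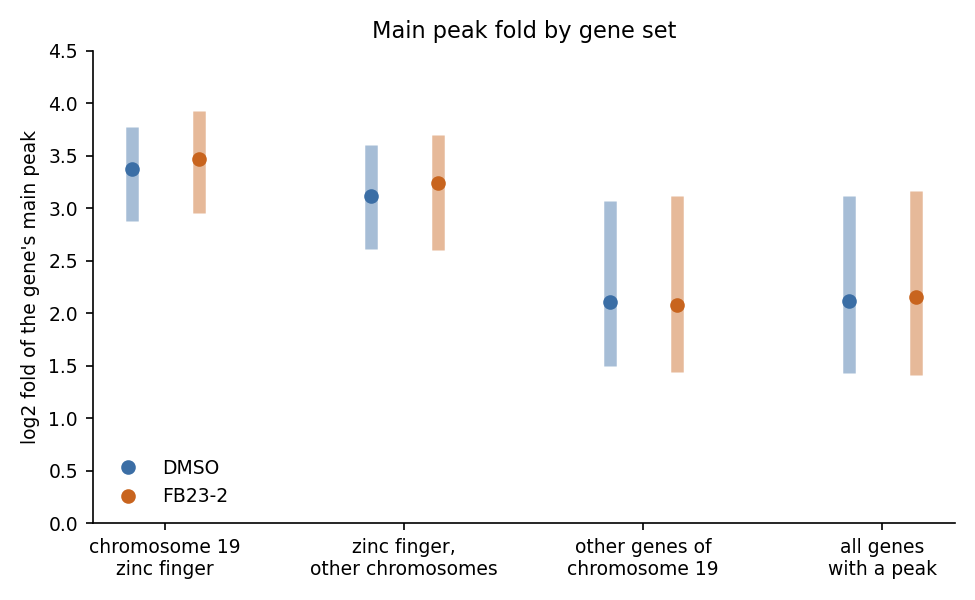
Log2 fold of each gene's main peak (vertical axis) in 4 sets of genes, for the DMSO and the FB23-2 list. Points are medians and bars run from the lower to the upper quartile over genes. Both zinc finger sets have medians above 3, and the other genes of chromosome 19 and all genes have medians near 2.1.

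In the DMSO list the main peaks with the highest folds were those of ZNF837 and ZNF324B, and in the FB23-2 list those of ZNF324B and ZNF575 (4.92). ZNF837 had 1 peak per list, annotated to the 5′ UTR, at 58369168 to 58369872 with DMSO (log2 fold 5.47) and at 58368968 to 58369897 with FB23-2 (4.62). The authors gave these peaks p = 7.47e-11 and p = 2.01e-16. ZNF324B had its main peak in the 3′ UTR class at 58456374 to 58457833 with DMSO (5.01) and at 58456349 to 58457833 with FB23-2 (5.61). It also had a pair of FB23-2-only peaks in the 5′ UTR class, with log2 folds of 3.36 and 3.30.

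Some peaks with high folds were not their gene's main peak. ZNF558 had a 175-base peak at 8806745 to 8806919 with a log2 fold of 5.67 in the DMSO list and its counterpart at 6.48 in the FB23-2 list, while its main peak stood at 3.12 and 3.06. The p-values that the authors gave the short peak were p = 3.51e-08 and p = 3.78e-08, far weaker than those of the main peak. ZNF224, which encodes a KRAB repressor of the aldolase A gene, held the highest fold of all, 6.89, in a peak of the FB23-2 list at 44105758 to 44105982 annotated as intronic. A peak of AC021092 on the opposite strand, with a log2 fold of 5.58, overlaps it. The main peak of ZNF224, in the 3′ UTR class, was at 3.78 and 3.82. In ZNF44 the DMSO list held 1 peak of 3.79 over 12242804 to 12294747, and the FB23-2 list held 2 in its place, at 5.16 and 3.99.

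Shared peaks with the lowest p-values, ties at 0 ordered by fold, were mostly in the 3′ UTR class. Those of ZNF555, ZNF799, ZNF114 and ZNF675 had DMSO log2 folds of 4.32, 4.29, 4.23 and 4.29 and FB23-2 log2 folds of 4.68, 4.24, 4.31 and 4.35. ZNF675 encodes TIZ, an inhibitor of TRAF6 signalling, and its main peak spanned 80718 bases in the DMSO list with introns included. ZNF446, a gene with both a SCAN and a KRAB domain, differed in that its main peak was in the 5′ UTR class, at 4.40 with DMSO and 4.18 with FB23-2. That peak, at 58472023 to 58474097 with DMSO, is ZNF446's by the tables' assignment: ZNF446 starts at 58474017, and nearly all of the peak lies upstream of it, within ZNF324 (58467045 to 58475436).

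A few genes had lower main peaks, and they are named here because of these values. With DMSO, 12 genes had a main peak under a fold of 4, among them ZNF358, ZNF414, ZNF653, ZNF296 and ZNF444. The lowest of the 12 were ZNF321P at a log2 fold of 1.11, ZNF738 at 1.22 and ZNF587B at 1.25. ZNF444, a SCAN domain protein, stood just under the limit, at 1.95 in the DMSO list and 1.96 in the FB23-2 list. ZNF296 stood at 1.71 and 1.82. With FB23-2 there were 14 such genes.

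By the tables' classes, 319 of 465 DMSO peaks (68.6%, exact 95% interval 64.2 to 72.8) and 319 of 458 with FB23-2 (69.7%, 65.2 to 73.8) fell in the 3′ UTR, beside 57.4% and 57.4% of the peaks of all genes and 67.2% and 67.6% of those of zinc finger genes of other chromosomes. The 5′ UTR class held 79 and 71 peaks, coding exons 45 and 47 and introns 16 and 16. Counting each gene once by its main peak, the 3′ UTR held 162 of 186 in each list (87.1%, 81.4 to 91.6), beside 64.5% and 63.6% over all genes and 82.5% and 81.2% over zinc finger genes of other chromosomes. The 3′ UTR peaks of the zinc finger genes had median log2 folds of 2.69 and 2.66, those of the 5′ UTR 1.82 and 1.96, and those of introns 1.31 and 1.37.

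Main peaks were long and did not usually reach the end of the gene. Their median span, introns included, was 5862 bases with DMSO and 4972 with FB23-2, beside 1334 and 1300 over all genes and 5112 and 5397 over zinc finger genes of other chromosomes. A span over 10 kb was found in 55 and 57 of them (29.6% and 30.6%), and in 33.2% and 36.2% of the zinc finger genes of other chromosomes. A peak of this length has 1 class only, so a 3′ UTR label does not say that the peak leaves out coding sequence. The median distance from the peak's end to the annotated gene end was 1234 bases with DMSO and 1440 with FB23-2. It was 1353 and 1303 over zinc finger genes of other chromosomes, 550 and 671 over all genes, and 5 and 8 over the other genes of chromosome 19. The peak ended more than 1 kb short of the gene end in 103 of 186 genes with DMSO and in 108 of 186 with FB23-2.

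The other peaks of these genes were weaker and shorter, which choosing the main peak by its p-value favours. With DMSO, 139 lay downstream of the main peak, with a median log2 fold of 1.30 and a median span of 350 bases, and 140 lay upstream, at 1.50 and 1447 bases. With FB23-2 there were 145 downstream (1.34, 350 bases) and 127 upstream (1.75, 1131 bases). Over all genes such peaks were weaker than the main peak too. Their median log2 folds downstream and upstream were 1.15 and 1.15 with DMSO and 1.17 and 1.23 with FB23-2. In zinc finger genes of chromosome 19 with several peaks, the main peak also had the highest fold in 107 of 126 with DMSO and in 102 of 124 with FB23-2. These shares, 84.9% and 82.3%, stand beside 83.0% and 82.2% for zinc finger genes of other chromosomes and 73.2% and 70.8% over all genes.

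ZNF490, on the minus strand, had its weaker peaks upstream. The main peak assigned to it, over 12525373 to 12576117, had a DMSO log2 fold of 3.94. It is ZNF490's by the tables' assignment: the gene spans 12576100 to 12640098, and nearly all of the peak lies past its end, outside the gene. A further 5 peaks upstream of the main peak, all in the 3′ UTR class, had log2 folds from 1.44 to 2.90. All 6 were found again with FB23-2, at 4.06 for the main peak and from 1.60 to 3.33 for the others. In ZNF383 the main peak stood at 3.18 and 3.46 between a 5′ UTR peak of 2.49 and 2.62 and weak peaks toward the 3′ end.

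Most peaks of these genes were present under both treatments. A peak was called shared when at least 50% of the shorter peak of a pair overlapped on the same strand, and list-only otherwise. By this rule the shared peaks were 383 of 465 with DMSO (82.4%, exact 95% interval 78.6 to 85.7) and 390 of 458 with FB23-2 (85.2%, 81.6 to 88.3), beside 79.9% and 82.7% over all genes. With spans over 10 kb left out the shares were 75.1% and 78.8%, beside 76.1% and 78.4% over all genes. The main peak was shared in 182 of 186 genes with DMSO and in 183 of 186 with FB23-2. The lists held 82 DMSO-only and 68 FB23-2-only peaks, against backgrounds of 20.1% DMSO-only and 17.3% FB23-2-only among all peaks. Of the 82 and 68, 14 and 7 had a fold of 4 or more. When peaks under a fold of 4 were removed from both lists before overlap was called, list-only peaks numbered 17 and 20. In lists of equal length they numbered 32 and 35. Those lists kept only the peaks with the lowest p-values, up to 80% of the length of the shorter list. In both of these settings a peak also counts as list-only where its counterpart fell below the cut.

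At least 1 DMSO-only peak was found in 57 of the 189 genes (30.2%, 23.7 to 37.2), where 34.4% of all genes had one. At least 1 FB23-2-only peak was found in 44 (23.3%, 17.5 to 30.0), where 30.6% of all genes had one. Any list-only peak was found in 80 genes (42.3%), where 51.8% of all genes had one, and none in 109. Both kinds were found in 21 genes (11.1%), beside 13.2% of all genes. Among the other genes of chromosome 19, 29.9% had a DMSO-only peak and 24.4% an FB23-2-only peak. Among zinc finger genes of other chromosomes, 33.2% and 31.5% did. Of the 57, 42 had a single DMSO-only peak, and of the 44, 32 had a single FB23-2-only peak.

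List-only peaks were weak and short. Their median log2 fold was 1.12 with DMSO and 1.14 with FB23-2, against 2.64 and 2.63 for shared peaks, and their median span was 225 and 212 bases against 2388 and 1988. Of the peaks under a fold of 2, 53.0% with DMSO and 45.1% with FB23-2 were shared. From a fold of 8 upward it was 96.8% and 96.4%. The same rise held over all genes, from 61.6% and 68.1% to 93.4% and 92.8%. Peaks of a fold of 8 or more made up 33.5% and 36.9% of the zinc finger peaks, and 13.4% and 14.3% of all peaks. The cause of a peak's absence from a list was not tested, and read depth, which can decide whether a weak peak is called, is unknown.

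**Figure D2:**
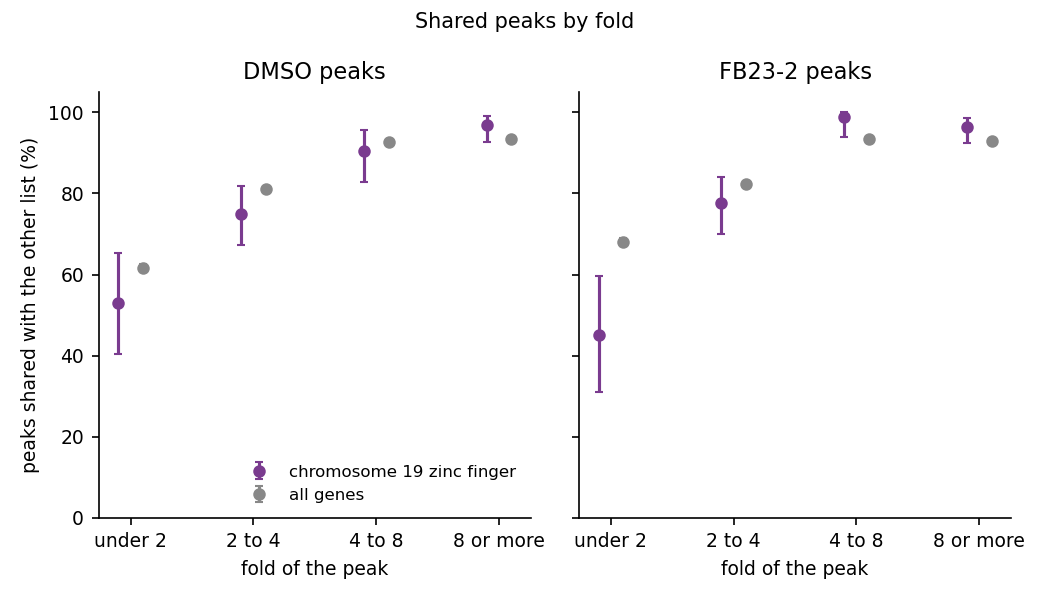
Share of peaks that were shared with the other list (percent, vertical axis) by the peak's fold, for the zinc finger genes of chromosome 19 and for all genes. Bars are exact 95% binomial intervals over peaks and are smaller than the points for all genes. The share rises from 53.0% and 45.1% under a fold of 2 to over 96% from a fold of 8 in the zinc finger genes.

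The main peaks of the 2 lists lay in the same region in 175 of the 183 genes with peaks in both (95.6%, 91.6 to 98.1), beside 92.2% over all genes. Across those 175 genes the DMSO and FB23-2 log2 folds had a Pearson correlation of 0.899 and a Spearman correlation of 0.909, given as a description because genes are not replicates and the lists come from the same line. The median log2 fold over the 175 was 3.39 in the DMSO list and 3.50 in the FB23-2 list. The lists were called separately, so a gap of this size cannot be read as a change in m6A.

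**Figure D3:**
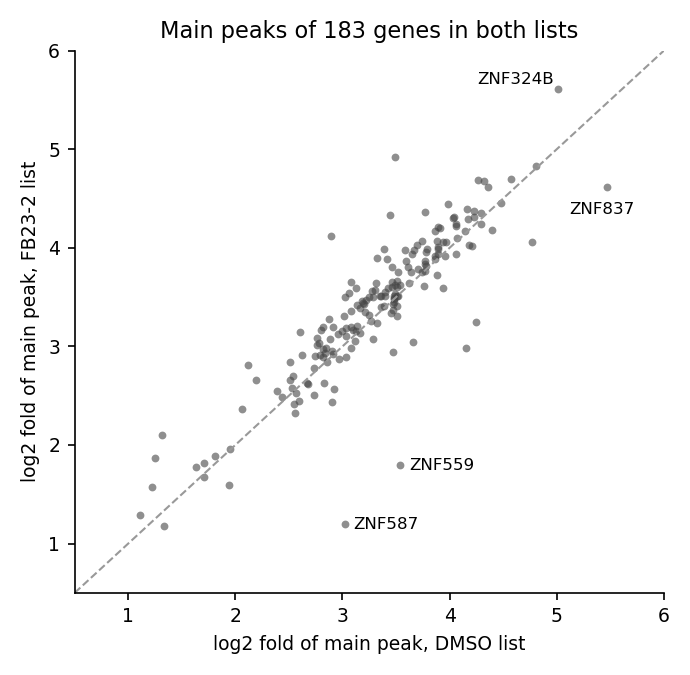
Log2 fold of the main peak in the DMSO list (horizontal axis) and in the FB23-2 list (vertical axis). Each point is 1 of the 183 zinc finger genes with a peak in both, and the dashed line marks equal values. Most points lie near the line. ZNF587 (3.02 and 1.20) and ZNF559 (3.54 and 1.80) lie far below it, and in both the DMSO region overlaps an FB23-2 peak assigned to another gene.

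In a few genes the lists assigned overlapping peaks to different genes. Other genes, such as ZNF432 and ZNF805, had main peaks in different regions of the same gene in the 2 lists. The DMSO main peak of ZNF559, at 9341500 to 9344024 (log2 fold 3.54), overlaps an FB23-2 peak of 3.41 that the authors' table assigned to the readthrough gene ZNF559-ZNF177. The DMSO main peak of ZNF587, at 3.02, overlaps an FB23-2 peak of 3.19 assigned to AC010522. The FB23-2 main peak of ZNF587, at 1.20, lies within the same DMSO region. ZNF587 and its paralog ZNF417 encode repressors of HERV-K elements, and ZNF417 stood at 3.77 and 3.84. ZNF780A with ZNF780B, ZNF814 with ZNF417 and ZNF547 with ZNF548 also hold peaks that overlap a peak of the partner gene in the other list. In ZNF547 the main peak, at 3.88 and 4.07, spans 28554 bases in the DMSO list and covers peaks of ZNF548.

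Peaks were found in the DMSO list only in 3 genes (1.59%, where 4.80% of all genes were) and in the FB23-2 list only in 3 (1.59%, where 3.88% were). The DMSO-list genes were ZNF540, ZNF414 and ZNF849P. ZNF540 had 3 peaks between 37611480 and 37613379, with log2 folds of 2.66 (p = 4.83e-12 in the authors' table), 1.15 and 1.18. ZNF414 had 1 peak at 8510603 to 8510802 (1.85). The pseudogene ZNF849P had 1 at 22685367 to 22685566 (4.01, p = 1.26e-11 in the authors' table).

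The FB23-2-list genes were ZNF569, ZNF90 and ZNF580. ZNF569 had 6 peaks, of which the longest, at 37413930 to 37425788, had a log2 fold of 1.63 (p = 2.13e-11 in the authors' table) and the others from 0.80 to 1.45. ZNF90 had a single peak of 0.94 (p = 0.00608 in the authors' table), and a peak of the opposite-strand gene AC011447 overlaps it. ZNF580 is in this set by name only: its peak at 55643117 to 55648206 (2.54) overlaps a DMSO peak of 2.81 that the table assigned to CCDC106.

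By number of list-only peaks, the leading genes were ZNF493, ZNF431, ZNF284, ZNF540 and ZNF254 for DMSO and ZNF431, ZNF569, ZNF100, ZNF562 and ZNF254 for FB23-2. ZNF431 had 4 DMSO-only peaks, with log2 folds from 0.64 to 1.79, and 7 FB23-2-only peaks, from 0.61 to 1.59. Its main peak ran over 21151098 to 21186321 with DMSO (3.21) and over 21151123 to 21186496 with FB23-2 (3.35), and all but 1 of the list-only peaks lie downstream of that peak. None of these list-only peaks had a fold of 4.

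ZNF254 also had list-only peaks on both sides, 3 and 3, beside shared peaks of 3.29 and 3.50 in the 3′ UTR class and of 2.52 and 2.80 in an intron. ZNF493 had 7 DMSO peaks and 2 FB23-2 peaks. The regions of both FB23-2 peaks, at 3.64 and 4.12, lay within DMSO peaks of 3.21 and 2.89, while log2 folds ran from 0.86 to 2.15 in its 4 DMSO-only peaks. A further DMSO peak assigned to it, of 0.87, runs far past the gene end and overlaps FB23-2 peaks.

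ZNF284 had 5 DMSO peaks and 1 FB23-2 peak. The shared peak has the same borders in both lists, 44089366 to 44089613, at 1.81 and 1.89, and the 4 DMSO-only peaks lay between 0.97 and 1.17. ZNF100 shows the other side, with 1 DMSO peak of 4.16 and the same region at 4.39 with FB23-2 plus 3 FB23-2-only peaks from 0.63 to 1.28. ZNF562 had 1 DMSO-only peak of 3.40 at 9674754 to 9674853, which lies next to its main peak of 3.91. It had 3 FB23-2-only peaks, of 1.41, 1.74 and 0.84, in the 3′ UTR class.

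**Figure D4:**
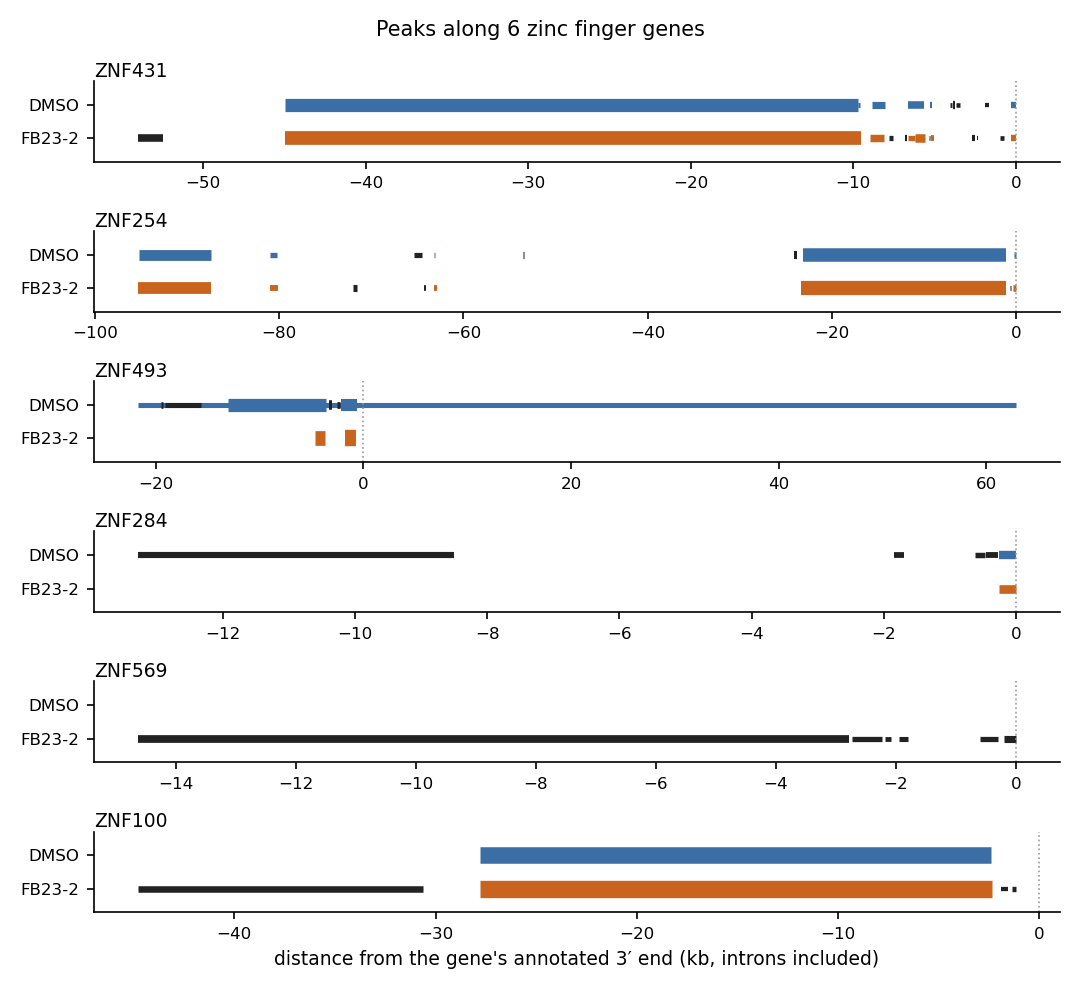
Peaks of 6 zinc finger genes by distance from the annotated 3′ end (kb, introns included), with DMSO above FB23-2 in each panel. Coloured bars are shared peaks, black bars are list-only peaks, and thicker bars have a higher log2 fold. The long thick bars of ZNF431, ZNF254 and ZNF100 sit at the same place in both lists. Most black bars are short and thin, with long thin ones in ZNF284, ZNF569 and ZNF100, and ZNF569 has no DMSO peak.

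The lowest p-values among list-only peaks belonged to genes outside those above, named here after their values were seen. ZNF428 had an FB23-2-only peak at 43608049 to 43614028 (log2 fold 1.19, p = 4.24e-18 in the authors' table) that abuts shared peaks on both sides. An opposite-strand peak of ZNF576 (1.38) overlaps 4172 of its bases. The DMSO list holds a ZNF576 peak there too, at 43600777 to 43612170 (1.37). ZNF846 had a DMSO-only peak at 9757544 to 9757993 (3.56, p = 9.86e-18 in the authors' table) close to its shared main peak. ZNF600 had an FB23-2-only peak at 52766893 to 52774644 in the 5′ UTR class (1.32, p = 3.74e-16 in the authors' table). ZNF160 had an FB23-2-only intronic peak at 53085633 to 53086007 (3.27, p = 4.38e-14 in the authors' table). In ZNF345 the only peak of each list, at 2.76 with DMSO and 3.09 with FB23-2, was list-only, and these peaks lie side by side in the same exon class without overlapping.

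Along the chromosome the genes form groups. Joined where at most 500 kb lie between neighbours, they made 19 groups, of which 8 with 10 or more genes held 163 of the 189. The largest, from ZNF264 to ZNF446 at 57191500 to 58481230, held 34 genes with 89 DMSO and 86 FB23-2 peaks, 12 and 9 of them list-only. At its ends, ZNF264 had its main peak at 3.58 and 3.98 and ZNF446 at 4.40 and 4.18. Next came ZNF175 to ZNF331 with 31 genes, 10 DMSO-only and 6 FB23-2-only peaks. ZNF331, an imprinted gene, had its main peak at 3.74 and 4.07.

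Among the 8 groups of 10 or more genes, main peak fold differed little beside the spread within groups. Their medians ran from 2.90 (ZNF101 to ZNF849P) to 3.84 (ZNF653 to ZNF791) with DMSO and from 3.10 (ZNF628 to ZNF71) to 4.04 (ZNF653 to ZNF791) with FB23-2. Within the largest group, single genes ran from 1.25 to 5.47 and from 1.20 to 5.61. The group from ZNF653 to ZNF791 held 16 genes and had 2 DMSO-only and 0 FB23-2-only peaks among its 31 and 30. The group from ZNF101 to ZNF849P, with 19 genes, had 11 and 17 list-only peaks, and 18 of its 27 coding genes in RefSeq had a peak. FB23-2-only peaks outnumbered DMSO-only peaks in 2 of the 8 groups. ZNF91, a repressor of SVA elements, belongs to a smaller group and had its main peak at 3.0 with DMSO and 3.16 with FB23-2.

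**Figure D5:**
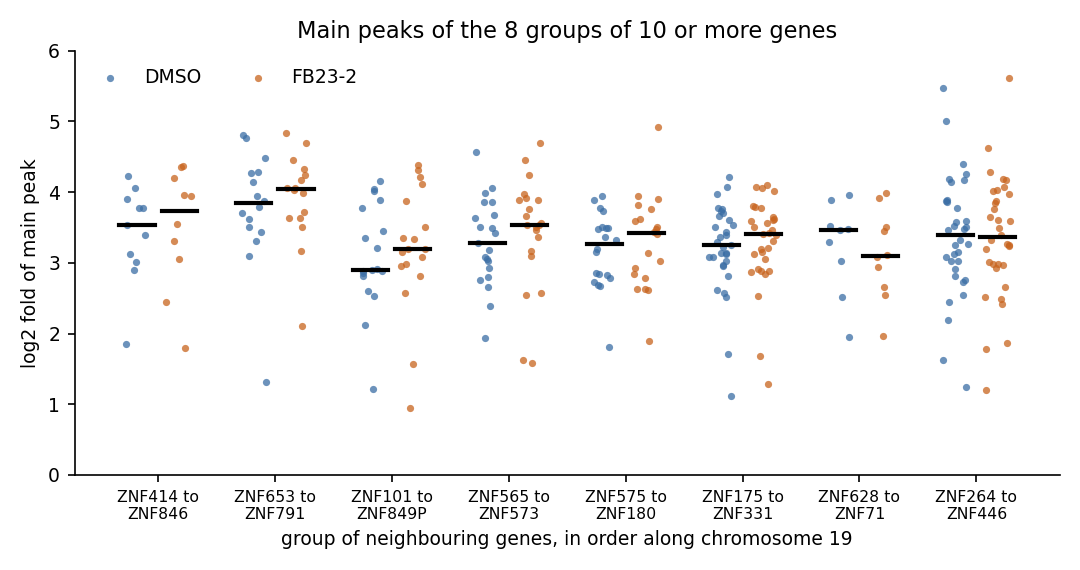
Log2 fold of the main peak (vertical axis) of each gene in the 8 groups of 10 or more neighbouring zinc finger genes, in their order along the chromosome. Points are genes in the DMSO or FB23-2 list, spread sideways for view, and lines are medians. Medians lie between 2.90 and 4.04, and the points of every group overlap those of the others.

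Peaks of these genes often lay over peaks of other genes. In the DMSO list 46 peaks of 31 genes, and in the FB23-2 list 49 peaks of 30 genes, overlapped a peak assigned to the opposite strand, such as that of ZNF224 (44106258 to 44108882, 3.78) and that of AC021092 (44106232 to 44112094, 3.96). Whether the libraries kept strand is not given in the sources used here, and without it the reads of such a pair cannot be told apart. Same-strand overlaps with another gene's peak concerned 14 peaks of 9 genes and 12 peaks of 10 genes. ZNF814 with ZNF417 is such a pair, and 7 peaks per list were assigned to ZNF814, at log2 folds from 1.18 to 3.25 with DMSO and from 1.50 to 3.58 with FB23-2.

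Cofactors of KRAB repression and their partners in heterochromatin had lower folds. Of 21 names listed, 20 had a peak in both lists; FAM208A is an older name of TASOR. Their median main peak was 1.98 with DMSO and 2.26 with FB23-2, close to the 2.12 and 2.15 of all genes. DMSO-only peaks were found in 11 of the 20 (18 peaks), where 34.4% of all genes had one, and FB23-2-only peaks in 11 (19 peaks), where 30.6% did. However, most of the 20 held 4 or more peaks in each list, which 24.8% and 24.1% of all genes did. These counts are by gene and do not show an excess per peak. TRIM28, the corepressor that KRAB domains bind, had 1 DMSO peak of 1.23 and 4 FB23-2 peaks, the main one at 1.24, and 3 of the 4 were FB23-2-only. SETDB1 stood at 3.32 and 3.24, with 0 list-only peaks in either list.

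Within the HUSH complex and its partner MORC2, an ATPase, TASOR was at 3.04 and 3.12, MPHOSPH8 at 2.52 and 2.53 and MORC2 at 3.69 and 3.77, with 3 FB23-2-only peaks in MORC2. PPHLN1, the third core subunit of HUSH, stood at 1.17 with DMSO and 2.45 with FB23-2 and had 2 list-only peaks in each list. With DMSO its highest log2 fold was 5.26, in a peak other than the main one, and with FB23-2 the main peak was the highest. CHD4, the ATPase of the NuRD complex, had 4 DMSO-only peaks and 0 FB23-2-only peaks, and its main peak was at 1.24 and 1.22. UHRF1, which helps maintain DNA methylation, stood at 2.73 and 2.92 and DNMT1 at 1.11 and 1.18. ZNF274, which brings SETDB1 to zinc finger gene clusters and is itself on chromosome 19, had its main peak at 3.89 and 4.01 in the 3′ UTR class and a 5′ UTR peak of 4.38 and 2.23.

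In the tables' KEGG column, 140 of the 189 genes (74.1%) carried the term for herpes simplex virus 1 infection, as did 94 of the 232 zinc finger genes of other chromosomes and 379 of all 16810 genes. The genes of chromosome 19 made up 36.9% of that term. As a check of the labelled line, 4 of 16 hepatocyte and liver cancer markers had a DMSO peak and 5 an FB23-2 peak, with none in ALB, AFP or APOA1. All 6 fibroblast markers, 1 of 4 endothelial markers and 2 (DMSO) or 1 (FB23-2) of 4 leukocyte markers had one. A peak needs m6A as well as expression, so these counts are no measure of cell type, and their part in the results was not tested.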

How the data were processed

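The authors deposited 1 peak table per treatment from MeRIP-seq of 3 DMSO and 3 FB23-2 samples of MHCC97H. Per the file headers, a peak's row gives its log2 fold change and its p-value, raw and adjusted, together with a class and a gene, all of them the authors' own. Per the submitters' processing notes HISAT2, Cuffdiff and GRCh38 were used. The sources used here do not give the peak caller, tool versions, strandedness or the handling of reads with several matches. Counts are absent from both tables, so depth per sample is unknown, and exact (Clopper-Pearson) 95% intervals cover the counting of peaks or genes only. Deposited starts count from 0 and are printed 1-based, and spans include introns.

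Overlaps were computed with bedtools 2.31.1, intervals with scipy 1.17.1, tables with pandas 2.3.3 and numpy 2.4.6 under Python 3.11.15, and figures with matplotlib 3.10.9. The overlap step was tested on simulated data. No test between the treatments was possible, because no column names a sample. Peaks with no assigned gene were left out of the counts over all genes. Gene symbols were matched to RefSeq for GRCh38.p14, and start windows to its table of sequences.

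The genes named are those with the most peaks, the lowest p among shared DMSO peaks, peaks in 1 list only, the most list-only peaks, the highest folds, and the ends of the largest group, plus a list of cofactors. Others are said to be outside it or are named for a known role or an overlap. The members and lists were chosen with earlier results of these data known. Values were recomputed with stricter lists (adjusted p below 0.001, or folds from 4 upward), lists of equal length, other overlap rules, strand ignored, introns left out, each gene counted once, overlapping peaks left out and groups joined at 250 kb. Leaving out spans over 10 kb, opposite-strand overlaps and pseudogenes, and further settings for the main peak fold, were alternatives chosen after seeing the data.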

Additional observations from a re-analysis of the deposited data

How the results depend on the processing

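No paired analysis was possible because the tables name no sample, and leaving out replicates was not run for the same reason. Recomputed were the shared and list-only values, main peak folds, 3′ UTR shares, peaks per gene, gene counts and the number of groups. Of these values, 67 stayed within their limit and 22 moved. The limit was the exact interval for shares and 1.5-fold for counts and peaks per gene. For the main peak fold it was the standard deviation over genes around the median. Its difference from the fold of all genes was judged by sign alone, which did not change. No other value could change sign. The share of DMSO and FB23-2 peaks that were shared became 93.2% and 92.3% at a fold of at least 4, 90.3% and 89.9% in lists of equal length, 66.7% and 67.7% with reciprocal overlap, and 75.1% and 78.8% with spans over 10 kb left out. Over all genes those last 2 settings gave 64.4% and 65.9%, and 76.1% and 78.4%, so without long spans the DMSO share lay below that of all genes, where it had been above. List-only peaks numbered 17 and 20, 32 and 35, and 155 and 148 in the first 3 settings. In the first and second, which cut the lists before overlap was called, the FB23-2-only count was the larger. At a fold of at least 4 the 3′ UTR share was 76.1% and 74.9%, peaks per gene were 1.43 and 1.50, and 5 genes had peaks in the DMSO list only. Counting each gene once, the 3′ UTR share was 87.1% and 87.1%. Joining at 250 kb gave 29 groups. For the list-only peaks of single named genes, 84 values stayed and 28 moved. The cause was not tested. Depth is unknown, so weak peaks missing from 1 list cannot be separated from peaks that were not called.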
